A study of Mus musculus with 7 samples.

Results

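Oxidative phosphorylation genes were taken from the deposited expression table by symbol: Nduf followed by a, b, c, s or v and a digit, Sdha to Sdhd, and every symbol that begins with Uqcr, Cox4 to Cox8 or Atp5. The rule found 83 of the 16734 genes in the table. By respiratory complex these were 37 genes of complex I, 4 of complex II, 8 of complex III, 17 of complex IV and 17 of complex V. Of these, 4 match by name only and are not core subunits: Cox4nb, a neighbour of Cox4i1 that encodes a membrane protein insertion factor, Cox7a2l, an assembly factor of supercomplexes, and Atp5s and Atp5sl, relatives of ATP synthase by name. Ndufab1, Cyc1 and Cycs belong to the chain but not to this naming pattern. A wider list of chain genes is counted below, and of these genes only Ndufab1 is given there with its values. Subunits encoded by mitochondrial DNA were not analysed here.

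RNA was sequenced from cell suspensions of whole thymus of mice aged 4 weeks, and 7 libraries were compared. Wild type C57BL/6 mice gave 3 libraries (replicates 1, 2A and 2B). Ikaros ZnF1-/- mice gave 2 libraries (replicates 1 and 2), and Ikaros ZnF4-/- mice gave 2 (replicates 1 and 2). Ikaros, encoded by Ikzf1, is a DNA-binding zinc finger protein of lymphocytes, and the mutants are named for loss of zinc finger 1 or zinc finger 4 of its DNA-binding region. The labels give neither the background strain of the mutants nor how the alleles were made. The comparison asks how loss of either finger bears on the thymus transcriptome, here on the genes of oxidative phosphorylation.

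Replicate 1 of each genotype was read at 76 bp on a GAIIx instrument and the others at 50 bp on a HiSeq. The 2 batches also differ in sex, since Xist was between 90.6 and 109 RPKM at 76 bp and between 0.01 and 0.03 at 50 bp, while Ddx3y showed the reverse (0 to 0.01 and 13.2 to 17.4 RPKM). RPKM relates the reads over a gene's exons to their length and to the size of the library. Ikzf1 itself was at 142 to 175 RPKM in wild type, 183 to 194 in ZnF1-/- and 238 to 257 in ZnF4-/-. Its value covers the whole gene and does not check the loss of a single zinc finger. Library totals were not in the table; the steps between low values gave an estimated 20140000, 14280000 and 6300000 reads for replicate 1 of wild type, ZnF1-/- and ZnF4-/-, and no estimate for the 50 bp libraries. The summed level of 12 markers of CD4+CD8+ thymocytes was 4807 to 7046 RPKM in all libraries, and that of muscle and heart markers was at most 1.98 RPKM.

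Oxidative phosphorylation makes most of the ATP of a resting cell. Complexes I and II pass electrons from NADH and succinate to ubiquinone, complex III passes them to cytochrome c, and complex IV passes them to oxygen. Complexes I, III and IV pump protons across the inner mitochondrial membrane, and complex V, the ATP synthase, uses the gradient to make ATP. Most subunits are encoded in the nucleus, many as short transcripts that have left processed copies throughout the genome.

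Those copies may bear on what an RPKM value means here, depending on how reads with several matches were treated. For each member, every window of 50 bases in the coding sequence was searched in the mouse genome (NCBIM37, the build also called mm9) for matches with up to 2 mismatches outside the gene itself. No window was unique in 11 of the 83 members, 17 members had under 50% of windows unique, 24 had 50% to under 100%, and 31 were unique throughout. The 4 pairs that follow, chosen as examples after their values were seen, show a window of 76 bases of a member's coding sequence and a copy elsewhere. Lower case bases are shared and capitals mark the mismatches.
Atp5h: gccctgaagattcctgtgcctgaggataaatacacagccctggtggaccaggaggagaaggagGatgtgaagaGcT
Atp5h copy: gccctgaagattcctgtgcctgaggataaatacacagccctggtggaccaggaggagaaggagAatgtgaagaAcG
Uqcrb: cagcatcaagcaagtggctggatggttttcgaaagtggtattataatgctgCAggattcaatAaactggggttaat
Uqcrb copy: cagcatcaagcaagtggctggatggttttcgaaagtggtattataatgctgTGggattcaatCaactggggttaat
Cox6c: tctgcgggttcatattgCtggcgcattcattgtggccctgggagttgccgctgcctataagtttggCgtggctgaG
Cox6c copy: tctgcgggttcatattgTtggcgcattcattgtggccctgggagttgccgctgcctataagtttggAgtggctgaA
Uqcrh: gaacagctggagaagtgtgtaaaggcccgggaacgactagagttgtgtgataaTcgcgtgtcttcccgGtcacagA
Uqcrh copy: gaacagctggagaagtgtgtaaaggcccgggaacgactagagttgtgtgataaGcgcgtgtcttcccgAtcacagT
The Atp5h window covers coding bases 226 to 301 and its copy lies at chr1:15057379-15057454, plus strand, in no annotated gene. For Uqcrb (coding bases 23 to 98) the copy is at chr5:138056877-138056952, plus strand, in the pseudogene Gm16089 within Fbxo24. Cox6c (coding bases 57 to 132) matches chr3:14802452-14802527, minus strand, in no annotated gene. Uqcrh (coding bases 106 to 181) matches chr15:99728804-99728879, minus strand, in the pseudogene Gm9763. Over the first 50 bases of these windows 3 pairs have no mismatch and the Cox6c pair has 1, while over all 76 bases each pair has 3. Other copies can be closer: of all coding windows of 76 bases, 10.2% were unique in Atp5h, 0% in Uqcrb, 16.7% in Cox6c and 76.9% in Uqcrh. How the authors treated reads with several matches is not given in the sources used here.

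The level of these genes was high for the tissue. The median of the members' mean RPKM was 33.8, against 9.77 for all 10498 tested genes, the genes whose mean over the libraries was 1 RPKM or more. By complex the medians were 31.6 for complex I, 54.5 for complex II, 60.9 for complex III, 12.5 for complex IV and 23.3 for complex V. The complexes differed far less than the genes within them, whose range spans from 0.0214 RPKM to 275 RPKM. Of the 83 members, 77 passed the level filter (36, 4, 8, 14 and 15 of complexes I to V); the other 6 were Ndufa4l2, Cox4i2, Cox6a2, Cox8b, Atp5g1 and Atp5g2.

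**Figure D1:**
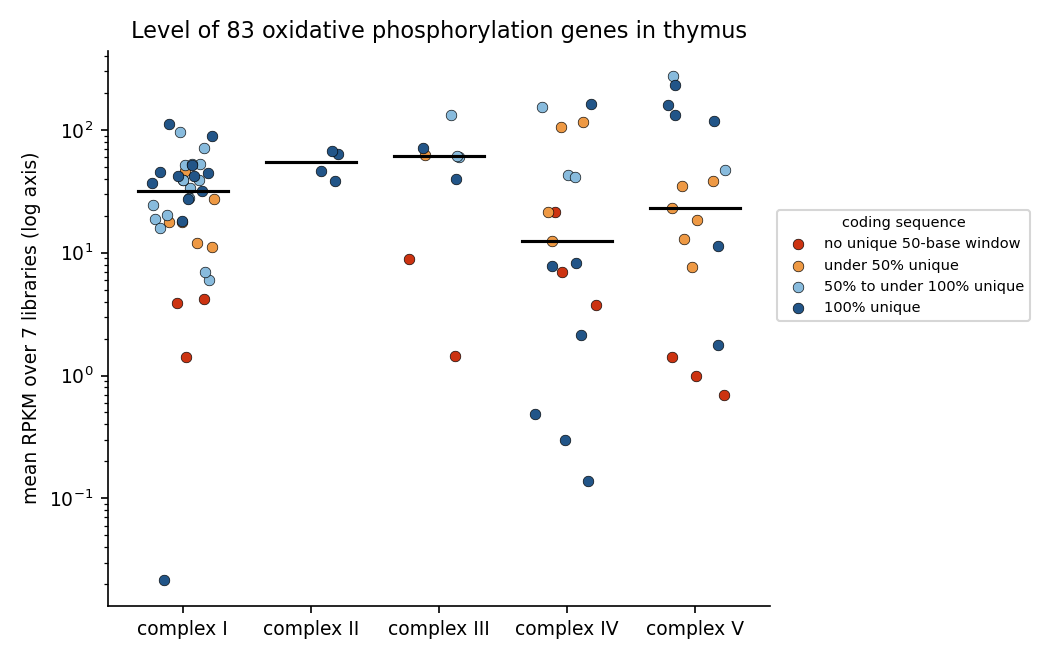
Mean RPKM over the 7 libraries on a log axis, 1 point per gene, by complex, coloured by the share of coding windows of 50 bases with no other match in the genome. Bars are medians over the members of a complex (31.6, 54.5, 60.9, 12.5 and 23.3 RPKM). The 11 genes with no unique window lie at 0.69 to 21.6 RPKM, each below the bar of its complex except Cox6c.

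Complex V held the highest value of the set, Atp5b, the catalytic beta subunit, at 295 ± 52.8 RPKM in wild type (SD, n = 3), 260 ± 54.3 in ZnF1-/- and 259 ± 40.2 in ZnF4-/- (SD, n = 2 each). The highest of complex IV was Cox4i1, the ubiquitous form of subunit 4, at a mean of 162 RPKM, of complex III Uqcrh, the hinge protein, at 132 RPKM, and of complex I Ndufa3, an accessory subunit, at 111 RPKM. The lowest tested value of complex III was Uqcrb, a subunit that binds ubiquinone, at 1.45 RPKM. Uqcrb is among the genes with no unique window, and levels of all 11 such genes had a median of 3.72 RPKM, against 42.1 RPKM for the 31 members unique throughout. Across the 83 members the Spearman correlation of mean RPKM with the unique share was 0.341, a description over genes that share these libraries.

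Complex II, succinate dehydrogenase, is encoded by 4 genes and was the most even complex. Sdhb, the iron-sulfur subunit, had the highest mean (67.0 RPKM), then Sdha, the flavoprotein (63.2), Sdhd (45.9) and Sdhc (38.1), the membrane anchors. Sdha stood at 54.3, 72.4 and 63.4 RPKM in wild type replicates 1, 2A and 2B, at 56.2 and 69.7 in ZnF1-/- and at 59.6 and 66.6 in ZnF4-/- (replicates 1 and 2), so all groups overlapped. Sdhb was at 50.5, 89.7 and 77.8 RPKM in wild type, 57.5 and 81.7 in ZnF1-/- and 49.7 and 62.1 in ZnF4-/-. The difference between neighbours Sdhb and Sdha was smaller than the spread of Sdhb between libraries. All 4 genes are unique throughout their coding sequence.

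Where a subunit has tissue isoforms, the ubiquitous form was the higher one in the thymus. Cox6a2, the heart and muscle form, was at 0.21 to 0.90 RPKM beside 70.7 to 143 RPKM for Cox6a1. Cox7a1, also a muscle form, was at 0.96 to 3.21 RPKM beside 26.1 to 59.3 for Cox7a2, and Cox8b at 0 to 0.54 RPKM beside 85.0 to 160 for Cox8a. The hypoxia and lung form Cox4i2 reached 0.48 RPKM at most, and Ndufa4l2, the hypoxia-induced paralog of Ndufa4, 0.06 RPKM. In each of these pairs the ranges over the 7 libraries were far apart. Cox6b2, known as a testis form, was higher than the other tissue forms at 5.48 to 11.2 RPKM, still below Cox6b1 at 97.6 to 220 RPKM. Of the 3 genes for subunit c of ATP synthase, which encode the same mature protein, Atp5g3 stood at 106 to 186 RPKM and Atp5g1 and Atp5g2 at 0.50 to 1.20 RPKM. The low values of Atp5g1 and Atp5g2 go with coding sequences that hold no unique window, whereas Cox6a2, Cox7a1, Cox8b, Cox4i2, Cox6b2 and Ndufa4l2 are unique throughout.

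No member passed the test in either mutant. With limma on log2(RPKM + 0.5), a scale that understates changes of low genes, 0 of 77 members had an adjusted p under 0.05 in ZnF1-/- against wild type, where 0.0857% of all tested genes were called. In ZnF4-/- against wild type 0 of 77 members were called, against 2.54% of all tested genes, and in ZnF4-/- against ZnF1-/- 0 of 77, against 2.34%. At an unadjusted p under 0.05 limma found 1 member lower in ZnF1-/- (Ndufs5; at this level 1.72% of tested genes were lower and 3.85% differed in either direction), 1 lower in ZnF4-/- (Ndufs4; 3.11% lower and 10.1% in either direction) and 0 between the mutants (9.17% in either direction). The median log2 change of the members was -0.05 in ZnF1-/-, -0.14 in ZnF4-/- and -0.07 between the mutants, beside -0.02, -0.05 and -0.03 for all tested genes. Wild type had a larger share of 50 bp libraries than either mutant, so the medians against wild type also carry part of the batch difference. With the replicate number in the fit as a block they were -0.02, -0.08 and -0.07, beside 0.01, -0.02 and -0.03 for all tested genes. Whether the replicates are separate animals is not said in the labels; p-values reflect how far these samples differ from each other, the difference between batches included. Values per library show how large that is.

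Complex V gave the member with the largest log2 change, Atp5k, which encodes the small subunit e of the membrane part, at chr5:108862263-108863467 (mm9, minus strand). It stood at 5.29 RPKM in wild type, 3.04 in ZnF1-/- and 1.83 in ZnF4-/- in the 76 bp libraries. In the 50 bp libraries it was at 12.8 and 13.4 RPKM in wild type, 10.4 in ZnF1-/- and 6.54 in ZnF4-/-. Within each batch the order was the same: wild type highest, ZnF4-/- lowest. The batches differed more than the genotypes, so the groups overlapped when pooled (10.5 ± 4.51 RPKM in wild type, n = 3, and 4.19 ± 3.33 in ZnF4-/-, n = 2, SD). Its log2 change in ZnF4-/- was -1.34 ± 0.65 (SE) with a limma adjusted p of 0.618, and -1.09 ± 0.13 with an adjusted p of 0.0018 when the replicate number entered the limma fit as a block.

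With that block Atp5k was the 1 member of 77 that fell in ZnF4-/- against wild type, where 2.12% of all tested genes fell and 8.22% changed in either direction. It was also the 1 member that fell in ZnF4-/- against ZnF1-/- (log2 change -0.62 ± 0.14, limma adjusted p = 0.0378, with 2.10% of tested genes lower and 7.29% in either direction). In ZnF1-/- against wild type the blocked fit called 0 of 77 members, against 0.876% of tested genes, and Atp5k had a log2 change of -0.48 with an adjusted p of 0.202. Leaving out any 1 library kept the blocked call of Atp5k in ZnF4-/- against wild type (adjusted p 0.00268 to 0.0154). Without ZnF4-/- replicate 1, which leaves 50 bp for that genotype, the fit called 10 members in place of 1: Cox7a2, Cox8a, Ndufa1, Ndufa4, Ndufa7, Ndufs6, Ndufv3, Uqcr10 and Uqcrq beside Atp5k. Without ZnF4-/- replicate 2, which leaves 76 bp, it called 5: Atp5c1, Atp5e, Cox7a1 and Ndufa12 beside Atp5k. Shares of all tested genes called in the fits without a library are not given here, and a fit without a mutant library leaves 1 of that genotype. These counts are therefore not read as a property of the members. Without wild type 1 the fit called 2 (Ndufa1 beside Atp5k), and without wild type 2A 2 (Cox6b1 beside Atp5k). Against ZnF1-/- the call was lost without ZnF1-/- replicate 1 (adjusted p 0.124), ZnF4-/- replicate 1 (0.119), wild type 2A (0.0522), wild type 2B (0.0992) or ZnF1-/- replicate 2 (0.287), and 3 other members (Cox8a, Ndufa1 and Ndufb7) were called without ZnF4-/- replicate 1.

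Atp5k is short, 296 bases of exon, and 15.6% of its coding windows of 50 bases and 58.9% of those of 76 bases were unique. At the estimated depths its 76 bp values correspond to 31.5 reads in wild type, 12.8 in ZnF1-/- and 3.4 in ZnF4-/-. Its promoter is shown because no other member was called between genotypes in the unblocked or the blocked fit of all 7 libraries. Other members were called only in alternative fits. The stretch runs from 250 bases before to 50 bases after the RefSeq start (GRCm38.p6, chr5:108434350-108434649, minus strand), and capitals mark matches to motifs of NRF1, ETS factors and Ikaros.
Atp5k promoter: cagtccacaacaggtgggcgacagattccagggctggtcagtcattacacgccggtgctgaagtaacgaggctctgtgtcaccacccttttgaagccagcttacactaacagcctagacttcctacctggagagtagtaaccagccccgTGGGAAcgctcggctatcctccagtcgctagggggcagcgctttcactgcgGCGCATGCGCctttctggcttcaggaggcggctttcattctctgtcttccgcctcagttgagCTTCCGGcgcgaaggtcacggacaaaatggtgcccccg
It holds GCGCATG overlapping its own reverse complement, the palindromic core of sites for NRF1, a regulator of nuclear genes of mitochondria, as well as CTTCCGG, the reverse complement of the ETS motif CCGGAAG, and TGGGAA, the core of Ikaros sites. Promoters were found for 68 members, 74 promoters in all, and were searched on both strands. The palindrome was in 6.76% of them, against 0.971% of 32851 promoters of the same length, and GCGCATG, which it contains, was in 17.6% against 3.91%. CCGGAAG was in 21.6% against 8.86%. TGGGAA was in 20.3% of the members' promoters and in 25.6% of all promoters, and TATAAA in 9.46% and 13.6%. These are matches of letters in a window and show no binding.

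No other member of complex V passed the test in either fit. Atp5c1, the gamma subunit of the central stalk (chr2:9977643-10002137, minus strand), was at 19.9 RPKM in wild type, 16.1 in ZnF1-/- and 11.02 in ZnF4-/- in the 76 bp batch. At 50 bp it was at 23.3 and 19.4 RPKM in wild type, 21.3 in ZnF1-/- and 18.4 in ZnF4-/-. Both ZnF4-/- values lay below every wild type value (log2 change -0.53 ± 0.24, limma adjusted p = 0.550; -0.17 without ZnF4-/- replicate 1). Atp5o, the stalk subunit that confers oligomycin sensitivity, was likewise below wild type in both ZnF4-/- libraries, by a narrow gap (21.7 ± 0.156 RPKM, n = 2, against 24.97 ± 1.81, n = 3, SD). Atp5s and Atp5sl, the members of the group by name only, and Atp5f1, a peripheral stalk subunit, were lower in both ZnF4-/- libraries than in both ZnF1-/- libraries. Atp5l, the g subunit, is a gene with no unique window and stood at 0.58 to 3.37 RPKM.

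**Figure D2:**
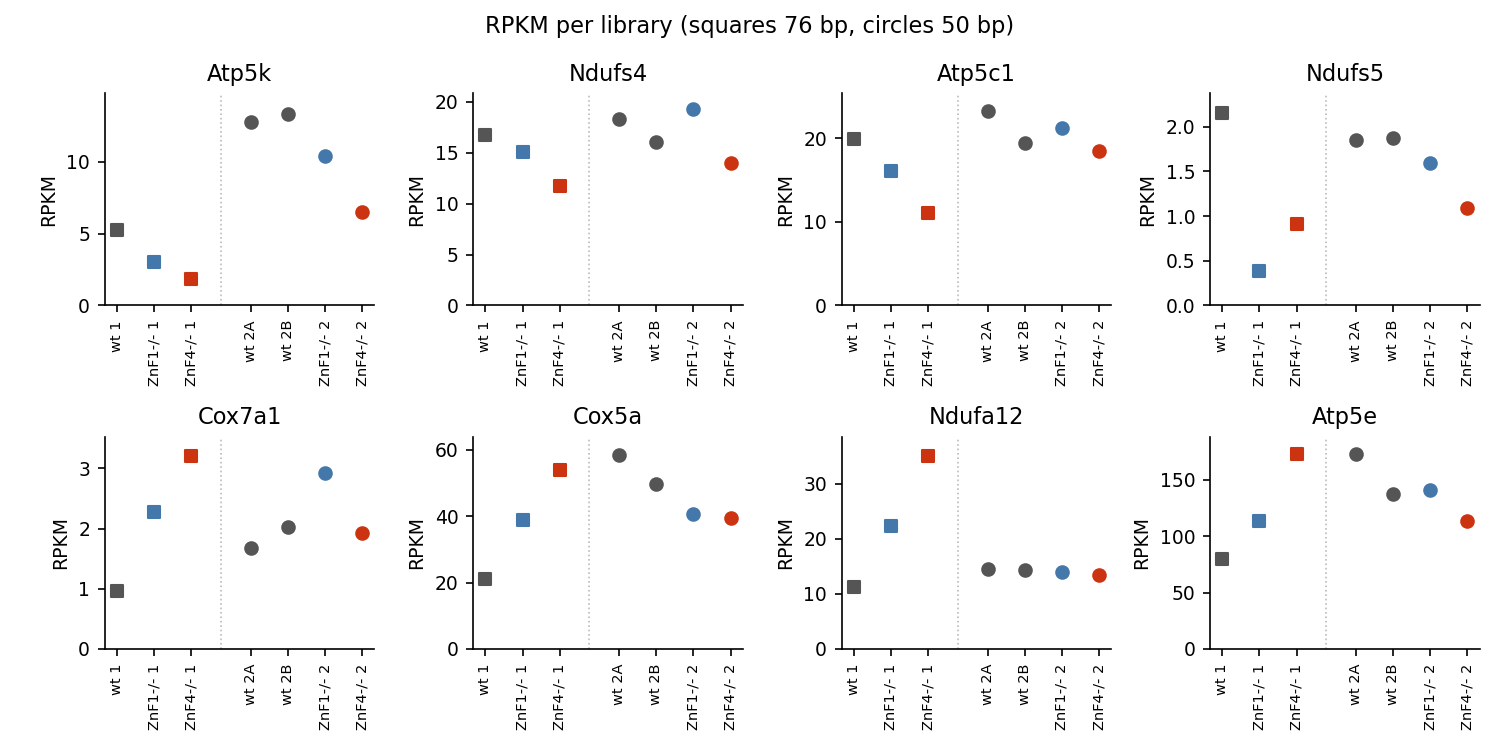
RPKM of 8 genes in each of the 7 libraries (squares 76 bp, circles 50 bp; grey wild type, blue ZnF1-/-, red ZnF4-/-; the dotted line divides the batches). Atp5k, Ndufs4 and Atp5c1 are lowest in ZnF4-/- within both batches, while Cox5a, Ndufa12 and Atp5e are highest in ZnF4-/- at 76 bp and lowest in it at 50 bp.

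In complex I the smallest p values belonged to Ndufs4 and Ndufs5. Ndufs4, an accessory subunit needed for assembly of the NADH-oxidising arm (chr13:115078003-115178302, minus strand), was at 16.7, 18.3 and 16 RPKM in wild type replicates 1, 2A and 2B. It was at 15.1 and 19.2 RPKM in ZnF1-/- and at 11.7 and 14.0 RPKM in ZnF4-/- (replicates 1 and 2). Both ZnF4-/- libraries lay below all 5 others (log2 change against wild type -0.40 ± 0.17, limma adjusted p = 0.479; against ZnF1-/- -0.40 ± 0.18, adjusted p = 0.597). Ndufs4 had 97.1% of its coding windows unique at 50 bases and all of them at 76. Its values rested on an estimated 517, 331 and 113 reads in the 76 bp libraries.

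Ndufs5, an accessory subunit at the membrane arm (chr4:123389953-123395445, minus strand), was at 2.15, 1.85 and 1.87 RPKM in wild type, 0.39 and 1.60 in ZnF1-/- and 0.91 and 1.09 in ZnF4-/-. All 4 mutant libraries were below the 3 wild type libraries (log2 change -0.84 ± 0.34 in ZnF1-/- and -0.71 ± 0.34 in ZnF4-/-, limma adjusted p = 1 and 0.605). None of its coding windows is unique, and the 76 bp mutant values stand for an estimated 2.9 reads each, so its level is uncertain. Ndufb11, a membrane arm subunit, was the other member below wild type in every mutant library (29.1 ± 0.989 RPKM in wild type, n = 3, 26.5 ± 1.60 in ZnF1-/- and 24.96 ± 1.28 in ZnF4-/-, n = 2, SD). Ndufa1, which helps assemble the membrane arm, was at 41.7, 76.9 and 69.7 RPKM in wild type and 36.7 and 41.9 in ZnF4-/- (log2 change -0.62 ± 0.31, limma adjusted p = 0.644). One wild type value fell between the ZnF4-/- values. Ndufa5 had a log2 change of -0.29 ± 0.17 in ZnF1-/-, Ndufa11 of -0.32 ± 0.27 and Ndufv3 of -0.31 ± 0.27, each with a limma adjusted p of 1.

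In complex IV the member with the smallest p was Cox7a1, the muscle form of subunit 7a. It was at 0.96, 1.67 and 2.02 RPKM in wild type, 2.27 and 2.92 in ZnF1-/- and 3.21 and 1.92 in ZnF4-/-. Both ZnF1-/- values lay above wild type, the ZnF4-/- values did not (log2 change 0.62 ± 0.29 in ZnF1-/- and 0.58 ± 0.29 in ZnF4-/-, limma adjusted p = 1 and 0.644). Its 76 bp values stand for an estimated 7.2, 12 and 7.5 reads. Cox6b1, the subunit that faces the space between the membranes, was at 134, 167 and 220 RPKM in wild type and 97.6 and 148 in ZnF4-/- (log2 change -0.50 ± 0.30, limma adjusted p = 0.763). Cox7b was at 17.0, 12.3 and 10.8 RPKM in wild type, 14.3 and 12.8 in ZnF1-/- and 11.6 and 9.06 in ZnF4-/-, lower in ZnF4-/- than in both ZnF1-/- libraries. Cox7a2l had a log2 change of -0.42 ± 0.32 in ZnF1-/-, with 1 low library (12.3 RPKM in replicate 1, against 16.6 to 26.7 in the others).

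Groups that did not overlap were counted over the set. In ZnF1-/- against wild type 1 of 77 members lay wholly above (Cox7a1; 6.85% of tested genes did) and 2 wholly below (Ndufb11 and Ndufs5; 6.99%). In ZnF4-/- 0 members lay wholly above wild type (12.5% of tested genes did) and 6 wholly below (Atp5c1, Atp5o, Ndufa11, Ndufb11, Ndufs4 and Ndufs5; 10.6%). Against ZnF1-/- 0 lay above (15.2%) and 6 below (Atp5f1, Atp5s, Atp5sl, Cox6b2, Cox7b and Ndufs4; 16.8%). As shares of the 77 members, all of these counts are under those of all tested genes.

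Within each replicate number the ZnF4-/- library was compared with wild type of the same batch, as a description with 1 mutant library each. At 50 bp, 71 of 77 members (92.2%) were lower in ZnF4-/- than the mean of wild type 2A and 2B, against 61.2% of all tested genes, with a median log2 difference of -0.28 (0.826-fold) against -0.07. At 76 bp, 32 members (41.6%) were lower, against 42.8% of tested genes, and the median was 0.10; with libraries scaled to a common median 38 were lower (median 0.02), and after quantile normalization 35 (0.04). The lower values at 50 bp were spread over the complexes: 33 of 36 members of complex I, 4 of 4 of complex II, 6 of 8 of complex III, 13 of 14 of complex IV and 15 of 15 of complex V. With libraries scaled to a common median 70 members were lower at 50 bp (57% of tested genes), and after quantile normalization 66 (56.5%). Taken against wild type 2A alone 75 members were lower, and against 2B alone 68. Wild type 2A was itself above 2B in 60 members, by a median of 0.16 log2 units (0.09 for all tested genes).

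ZnF1-/- did not show this. At 76 bp 42 members (54.5%) were lower than wild type, against 45.9% of tested genes, and at 50 bp 44 (57.1%), against 48.2%, with medians of -0.03 and -0.01, the latter 0.01 after quantile normalization. The 50 bp count moved to 57 against wild type 2A alone and to 26 against 2B alone. Both mutants were compared with the same wild type libraries.

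**Figure D3:**
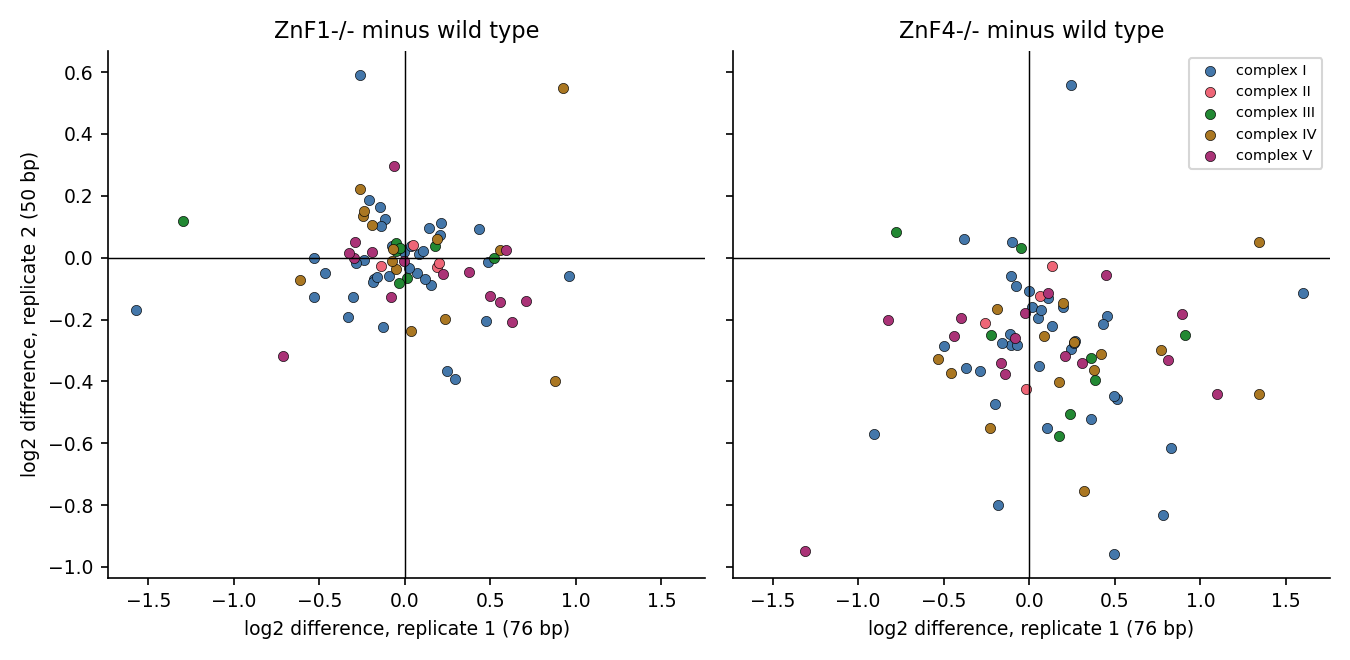
Log2 difference of each of the 77 tested genes from wild type at 76 bp (horizontal axis) and at 50 bp (vertical axis), for ZnF1-/- (left) and ZnF4-/- (right), coloured by complex. In ZnF4-/- most points lie below the horizontal line and spread to both sides of the vertical line; 43 are higher at 76 bp and lower at 50 bp, and 28 are lower in both.

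The batches thus gave different directions for many members. In ZnF4-/- against wild type 28 members (36.4%) were lower in both batches, against 29.2% of all tested genes, and 2 (2.6%) were higher in both, against 25.1%. A further 43 were higher at 76 bp and lower at 50 bp, and 4 the reverse, against 3344 and 1430 of 10498 tested genes. Among 962 other genes under 1000 bases these counts were 440 and 70. In ZnF1-/- 22 (28.6%) were lower in both and 13 (16.9%) higher in both, against 26.1% and 31.8% of all tested genes. There 22 were higher only at 76 bp and 20 only at 50 bp, against 2310 and 2081 of 10498. Between the mutants 22 (28.6%) were lower in ZnF4-/- in both batches and 2 (2.6%) higher in both, against 37.3% and 26.6%. A further 51 were higher in ZnF4-/- at 76 bp and lower at 50 bp, against 2703 of 10498 tested genes.

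Cox5a, a nuclear-encoded subunit of complex IV (chr9:57369039-57380231, plus strand), is 1 example, chosen after its values were seen. At 76 bp it was at 20.9 RPKM in wild type, 39.0 in ZnF1-/- and 53.8 in ZnF4-/-. At 50 bp it was at 58.3 and 49.6 in wild type, 40.7 in ZnF1-/- and 39.5 in ZnF4-/-. The order of the genotypes was reversed between batches. Ndufa12 of complex I (chr10:93661700-93684188, plus strand) ran from 11.3 through 22.4 to 35.1 RPKM at 76 bp and lay between 13.4 and 14.6 RPKM in all 4 libraries at 50 bp. Atp5e, the epsilon subunit of ATP synthase, was at 80.3, 113 and 173 RPKM at 76 bp, and at 50 bp at 173 and 137 in wild type, 141 in ZnF1-/- and 113 in ZnF4-/-. In these 3 genes wild type replicate 1 was the lowest of all 7 libraries. A limma term for the difference between batches, added after seeing the data, was called for 5 of 77 members in ZnF1-/- (1.32% of tested genes) and 15 of 77 in ZnF4-/- (4.45%), listed in the closing section.

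The members are short, with a median exon length of 684 bases against 2728 for all tested genes, and length moved with these differences in genes outside the set as well. Among 962 other genes under 1000 bases, 76.7% were lower in ZnF4-/- at 50 bp (median -0.25) and 38.0% at 76 bp (median 0.16). Among the 404 of these at 10 RPKM or more, 87.4% were lower at 50 bp (median -0.33), close to the 92% and -0.32 of the 50 members under 1000 bases. Members of 1000 bases or more were also lower at 50 bp in 25 of 27 cases, with a median of -0.20. All other genes of 1000 bases or more gave 59.3% and -0.06, a group not matched to these members in length. In the length classes that hold 13 and 8 of them, other genes had medians of -0.185 and -0.15 (median lengths 1262.5 and 1764 bases). In the classes that hold 5 and 1 the medians were -0.09 and 0.01 (2491 and 4666 bases). Whether long members differ from genes of like length and level was not tested. After the trend with length and GC content was removed from each library, a step chosen after seeing the data, 60 of 77 members (77.9%) were lower in ZnF4-/- at 50 bp, against 60.7% of tested genes, with medians of -0.09 and -0.06. At 76 bp the same step gave 50 of 77 (64.9%) against 56%, with medians of -0.09 and -0.04. The part of length, GC content, depth or sex in the differences between batches was not tested beyond these values.

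**Figure D4:**
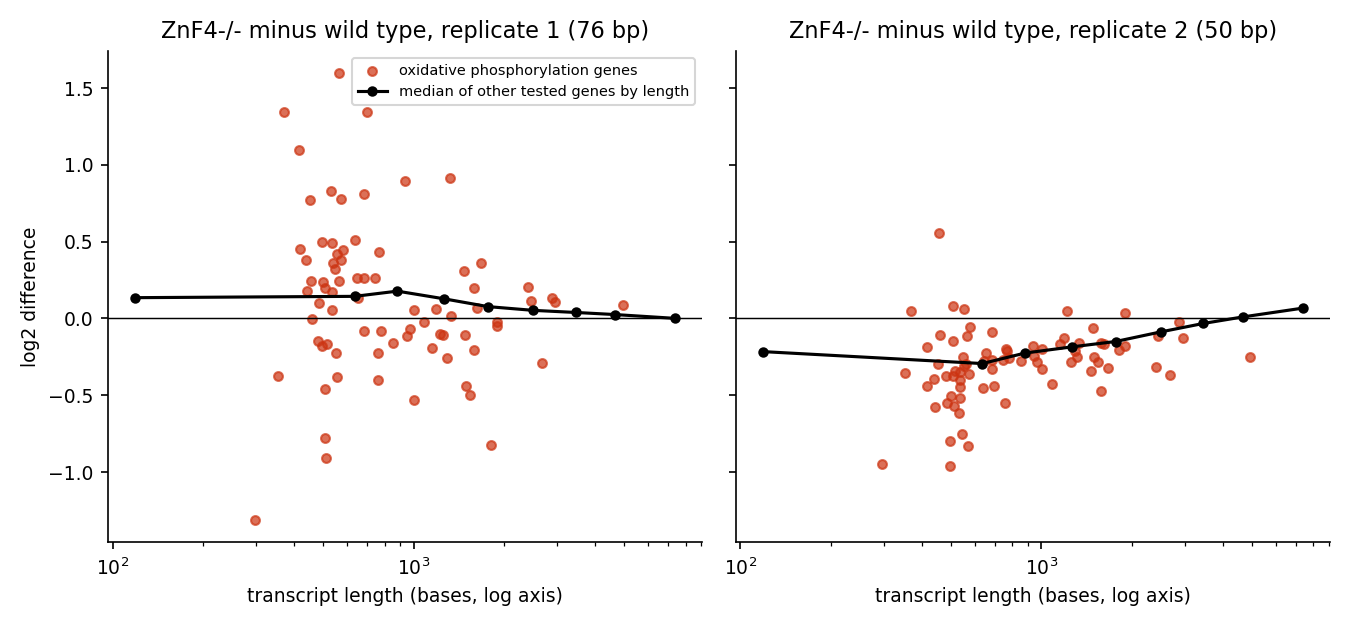
Log2 difference of ZnF4-/- from wild type against exon length (log axis) at 76 bp (left) and 50 bp (right). Red points are the 77 members, and the black line joins medians of other tested genes in 9 classes of length, which run from 0.14 for the shortest to 0.00 for the longest at 76 bp and from -0.22 to 0.07 at 50 bp.

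The largest differences in the set lay between the batches. With genotype in the limma fit, 51 of 77 members differed between 50 bp and 76 bp libraries at an adjusted p under 0.05, against 41.3% of all tested genes; 37 were higher at 50 bp (34.6% of tested genes) and 14 lower (6.74%). The median difference was 0.36 for the members and 0.20 for all tested genes; with libraries scaled to a common median that of the members was 0.18. The split depended on scaling: 23 higher and 15 lower when libraries were scaled to a common median, and 14 higher and 16 lower after quantile normalization. Shares of all tested genes under these scalings are not given here. Atp5k was the highest, with a log2 difference of 1.46 ± 0.11 (SE; limma adjusted p = 0.000203), followed by Ndufb2 (1.29 ± 0.16). The lowest were Atp5h (-1.86 ± 0.10, limma adjusted p = 4.06e-05), Ndufb4 (-1.78 ± 0.16) and Uqcr11 (-1.42 ± 0.16). In all 3 genotypes 40 members (51.9%) were higher at 50 bp and 15 (19.5%) lower, beside 52.7% and 12% of all tested genes.

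Most members with no unique window stood at the low end. Atp5h, the d subunit of the peripheral stalk (chr11:115277003-115281276, minus strand), which has almost none, was at 56.0 to 76.4 RPKM in the 3 libraries at 76 bp and at 17.1 to 18.2 in the 4 at 50 bp, and 3.66% of its coding windows of 50 bases were unique. Ndufb4 (chr16:37647256-37654539, minus strand) was at 6.16 to 8.95 RPKM and at 1.24 to 2.24. The 2 batches did not overlap in either gene; the Atp5h window is shown above. Calls that follow are at a limma adjusted p under 0.05, and medians cover called and uncalled members. Of the 9 tested members with no unique window 7 were called lower at 50 bp and 0 higher, with a median of -1.10. Of the 17 with under 50% of windows unique 4 were called higher, Atp5k among them, and 5 lower, with a median of 0.01. Of the 24 with 50% to under 100% unique 16 were called higher and 1 (Uqcrh) lower, with a median of 0.52. Of the 27 tested members that are unique throughout, 17 were called higher and 1 (Atp5s) lower, with a median of 0.37. By sign alone, called or not, 7, 8, 5 and 1 members of these classes, in the same order, were lower at 50 bp. The Spearman correlation of the batch difference with the unique share was 0.393 over the 77 members for windows of 50 bases and 0.42 for windows of 76. Ndufb4 and Uqcr11 had no unique window at either length. Read length, instrument and sex cannot be told apart in this contrast.

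**Figure D5:**
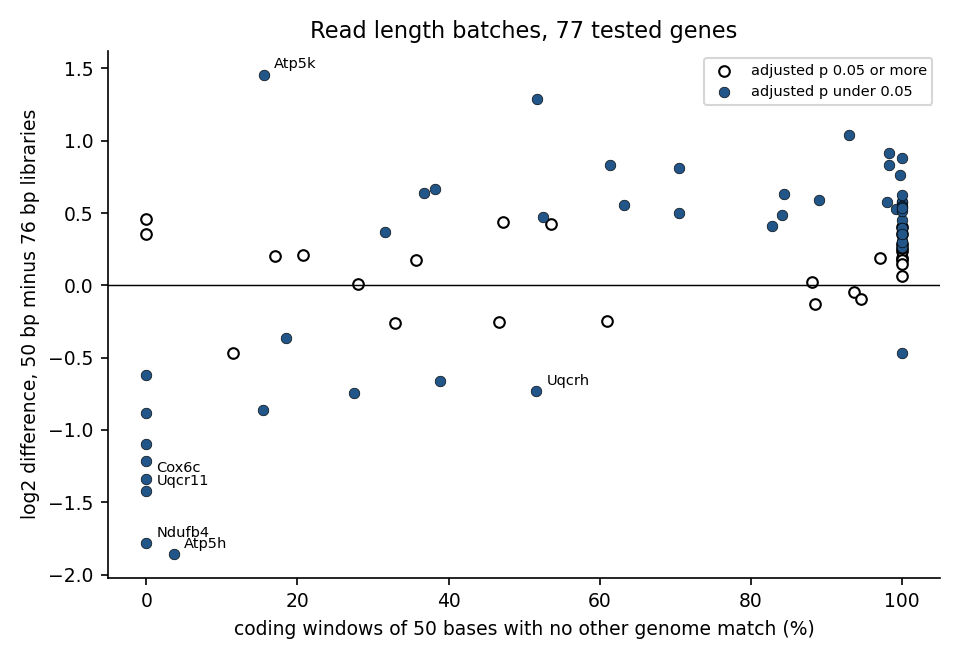
Log2 difference between 50 bp and 76 bp libraries, adjusted for genotype, against the share of coding windows of 50 bases with no other match in the genome, for the 77 tested genes; filled points had a limma adjusted p under 0.05. All 7 called genes with no unique window lie below 0, and Atp5k is the highest point at 15.6% unique.

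Other genes of the mitochondrion were counted from lists of textbook members. No gene passed the unblocked limma test in any genotype comparison among 8 tested complex I assembly factors, 21 assembly factors of complexes II to V, 17 TCA cycle genes, 74 mitochondrial ribosomal proteins, 17 regulators of mitochondrial biogenesis, 23 other respiratory chain genes (which include member Ndufc1) and 78 cytosolic ribosomal proteins. In that unblocked fit the median log2 change in ZnF4-/- against wild type was -0.13 for mitochondrial ribosomal proteins, -0.15 for the TCA cycle and -0.0039 for cytosolic ribosomal proteins. With the replicate block Mrpl36, a protein of the large mitochondrial ribosomal subunit, fell in ZnF4-/- (log2 change -0.39, limma adjusted p = 0.0431), and so did Rpl30 of the cytosolic ribosome (-0.73, adjusted p = 0.0338). These were 1 of 74 and 1 of 78 genes, in a fit where 2.12% of all tested genes fell and 640 of 10498 rose. Mtif2, the mitochondrial translation initiation factor, rose (0.53, adjusted p = 0.0252): it was at 6.95, 7.10 and 6.16 RPKM in wild type, 9.20 and 9.73 in ZnF1-/- and 9.53 and 10.2 in ZnF4-/-, with no overlap between wild type and either mutant. Nrf1, the factor named above, was at 22.4, 32.0 and 29.7 RPKM in wild type and 19.0 and 26.4 in ZnF4-/-, overlapping. Ndufab1, the acyl carrier subunit of complex I, was at 1.41 to 2.56 RPKM in all libraries.

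Most of these lists also held mainly lower values in ZnF4-/- at 50 bp, where 61.2% of all tested genes were lower (median -0.07). There 66 of 74 mitochondrial ribosomal proteins were lower than wild type (median -0.22), 59 of 78 cytosolic ribosomal proteins (-0.14), 16 of 17 TCA cycle genes (-0.14), 18 of 21 assembly factors of complexes II to V (-0.11), 7 of 8 of complex I (-0.16), and 19 of 23 other chain genes (-0.11). The regulators of mitochondrial biogenesis, with 11 of 17 lower (-0.06), were near all tested genes. For the proteins of both ribosomes as for the members, the 76 bp batch gave another picture: 26 of 74 and 39 of 78 were lower.

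Summed levels of several cell type markers were higher in ZnF4-/- beside these values. The summed level of 9 erythroid markers found in the table was 95.6 to 116 RPKM in ZnF4-/- and 22.8 to 58.8 in wild type, that of 10 macrophage markers 102 to 136 and 60.2 to 84.8, and that of 10 thymic epithelial markers 58.0 to 64.5 and 29.1 to 48.9. Sums of 12 markers of CD4+CD8+ thymocytes were 4807 to 5716 RPKM in ZnF4-/- and 5222 to 7046 in wild type, which overlap, and those of 12 proliferation markers 560 to 561 and 619 to 658. Single markers did not all follow the sums. At 76 bp 4 of 8 tested macrophage genes and 2 of 5 tested erythroid genes were lower than wild type. At 50 bp 2 of 4 tested epithelial genes were lower. With the block, 2 of 12 thymocyte markers fell in ZnF4-/-, Cd8a among them (log2 change -0.51, limma adjusted p = 0.0479). Pcna, 1 of 12 proliferation markers, also fell (-0.58, limma adjusted p = 0.00689). Hbb-b1 and Hbb-b2, 2 of 5 tested erythroid genes, and C1qa and C1qc, 2 of 8 tested macrophage genes, rose. In that fit 223 of 10498 tested genes fell and 640 rose in ZnF4-/- against wild type. The epithelial marker Cldn4 rose without the block as well (log2 change 1.73 ± 0.31, limma adjusted p = 0.0347). None of these lists had a marker at 0 in all libraries; of 9 fat and stromal markers 1 was, and their sum was at most 1.68 RPKM. The part of these shifts in the members' values was not tested. In a whole organ, fewer cells of a type and less RNA per cell cannot be told apart.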

How the data were processed

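The values used were RPKM, calculated by the authors from reads over exons with SeqMonk and the NCBI annotation of mm9, per the series design text, with duplicate transcripts of a gene removed. Reads were aligned with TopHat and bedtools was used, per the submitters' processing notes. Versions, settings and strand are not given in the sources used here. Here, log2(RPKM + 0.5) was tested with limma 3.58.1 (lmFit, eBayes with trend, R 4.3.3) in 1 fit of 3 groups, for 10498 genes whose mean was 1 RPKM or more. P-values were two-sided and adjusted by Benjamini and Hochberg over those genes, with a threshold of 0.05. The unblocked fit had 4 residual and 3.26 prior degrees of freedom. A permutation of 3 libraries against 2 cannot go below p = 0.1, so none was run.

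The replicate number marks a sequencing batch in the labels. Deviations of the 8 pairs of libraries of different genotype that share a batch correlated at 0.489 to 0.737 across genes. Deviations were taken from the mean of each genotype, so the 2 libraries of a mutant mirror each other and the pairs are not separate observations. The same fit with the number as a block is given where it changes a call. Wild type 2A and 2B may be 1 preparation; they were kept as 2 libraries. Unique windows were found with blastn 2.17.0, and promoters came from RefSeq (GRCm38.p6).

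Named genes were members called in either fit, the 10 smallest p per comparison, complex II, isoform pairs, the highest and lowest of each complex and the 3 largest batch differences in each direction; from lists, called genes and at most 3 others. Some of these are not reported here. Members and lists were chosen with earlier results of these data known. The fits with the trend of length and GC removed, the blocked fit without each library, the genotype by batch term, and the counts within a replicate under other scalings or against a single wild type library were added after seeing the data.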

Additional observations from a re-analysis of the deposited data

Results flagged for a closer look

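The difference between a mutant and wild type was itself compared between the batches, with limma on log2(RPKM + 0.5) and a term for genotype by batch, a test added after the data were seen. Adjusted over all tested genes, it found 5 of 77 members in ZnF1-/- against wild type (1.32% of tested genes) and 15 of 77 in ZnF4-/- (4.45%). The fit has 1 residual degree of freedom, from wild type 2A and 2B, and 16.8 prior degrees. Its p-values therefore measure the spread of that pair, and whether the pair came from separate animals is not said in the labels. Values are the log2 difference at 50 bp minus that at 76 bp.

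In ZnF1-/- the difference was more negative at 50 bp for Atp5g3 (-0.84), Cox5a (-1.28) and Ndufa12 (-1.02). It was more positive for Ndufs5 (1.41) and Uqcrb (1.41), both with no unique coding window.

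In ZnF4-/- all 15 values were negative. Of complex I they were Ndufa2 (-1.44), Ndufa4 (-1.45; later work places this protein in complex IV), Ndufa12 (-1.71), Ndufb7 (-0.94), Ndufb10 (-0.97) and Ndufs6 (-1.61). Of complex III they were Uqcrc1 (-0.68), Uqcrfs1 (-1.16) and Uqcrq (-0.74). Of complex IV they were Cox5a (-1.78), Cox7a1 (-1.30) and Cox8a (-1.08). Of complex V they were Atp5d (-1.08), Atp5e (-1.54) and Atp5g3 (-1.14). Ndufa4 gives the picture: it was at 86.0 RPKM in wild type and 121 in ZnF4-/- at 76 bp, and at 125 and 99.9 in wild type and 57.2 in ZnF4-/- at 50 bp. The cause of the difference between batches was not tested.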

How the results depend on the processing

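Among the values of the counts and medians recomputed under the alternatives, 133 kept their call or stayed within the spread between replicates and 9 moved. The replicate block gave 1 member called when ZnF4-/- was compared with wild type and 1 when it was compared with ZnF1-/- (Atp5k in both), in place of 0, and changed no other call of a member between genotypes. With the block and the trend of length and GC removed, chosen after seeing the data, it gave 4 (Sdhb, Ndufa1, Ndufv3 and Atp5k) and 1 (Ndufs4). The share of all tested genes called in that fit is not given here. Members called between batches numbered 30 after quantile normalization, in place of 51. Their median batch difference was 0.16 with the trend removed, 0.18 with libraries scaled to a common median and 0.11 after quantile normalization, in place of 0.36. Against wild type 2B alone, 26 members were lower in ZnF1-/- replicate 2, in place of 44. The cause of these shifts was not tested.

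With each library left out in turn, the unblocked fit called 0 members between genotypes, and batch calls ran from 35 (without a ZnF1-/- library) to 60 (without a ZnF4-/- library). Shares of all tested genes in these fits are not given here. The members' median log2 change in ZnF1-/- ran from -0.21 (without wild type 1) to 0.12 (without ZnF1-/- replicate 1). It ran from -0.27 to -0.01 in ZnF4-/- and from -0.27 to 0.10 between the mutants. The batch median ran from 0.22 to 0.44. In ZnF1-/- against wild type the sign turned without ZnF1-/- replicate 1 for Atp5k (-1.53 to 0.0917), Atp5o (-0.43 to 0.0698), Cox7a2l (-0.92 to 0.0845), Ndufa11 (-0.76 to 0.11) and Ndufv3 (-0.67 to 0.0554). In ZnF4-/- against ZnF1-/- it turned for Atp5k (-1.43 to 0.19), Atp5l (-1.36 to 0.28) and Ndufa1 (-0.67 to 0.0410). Without ZnF4-/- replicate 1 the change in ZnF4-/- against wild type was -0.54 for Atp5k, -0.17 for Atp5c1, -0.20 for Cox6b1 and 0.0023 for Ndufa12, and without ZnF1-/- replicate 1 that of Ndufs5 in ZnF1-/- was -0.22. Depth limits the 76 bp values: 1, 2 and 5 of 77 members rested on under 10 estimated reads in replicate 1 of wild type, ZnF1-/- and ZnF4-/-.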
